A study of Mus musculus with 6 samples.

Results

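The genes described here are 9 intracellular and membrane signalling genes of immune receptors in myeloid cells: Ptprc, Lyn, Syk, Btk, Blnk, Plcg2, Vav1, Inpp5d and Ptpn6. They were found by name among the 33000 genes of the count table, and each matched 1 row. TruSeq mRNA libraries had been generated from the frontal cortex of 3 wild-type (WT) C57BL/6 mice and 3 homozygous GFAP-IL6 mice, all 3 months old, as the reference for the 3’Pool-seq protocol of the study. GFAP-IL6 mice, whose strain is also given as C57BL/6, carry a transgene in which the promoter of the astrocyte gene Gfap drives the cytokine IL6. Each library came from a separate mouse, and bulk cortex RNA holds all cell types of the tissue together. The question was which of these genes differed between GFAP-IL6 and WT cortex, and by how much.

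As background, myeloid cells such as microglia sense immune complexes, lipids and cell debris through receptors that signal by ITAMs, short tyrosine motifs in the receptor or its adaptor. Src-family kinases such as Lyn phosphorylate the motif, Syk docks on it, and Syk and Btk then activate the phospholipase Plcg2 and the exchange factor Vav1, with Blnk as one of the scaffolds. Inhibitory receptors carry ITIMs, which recruit the phosphatases Ptpn6 (SHP-1) and Inpp5d (SHIP1), and Ptprc (CD45) sets the activity of Src-family kinases at the cell surface. The same parts are used by B cells downstream of the antigen receptor, and in the brain they are known mainly from microglia.

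The members lie on 8 chromosomes of the GRCm38 assembly and are protein-coding. Ptprc spans chr1:138062861-138175708 on the minus strand and Inpp5d spans chr1:87620312-87720507 on the plus strand of the same chromosome. Lyn spans chr4:3678115-3813122 (plus), Syk chr13:52583173-52648792 (plus), Btk chrX:134542336-134583570 (minus), Blnk chr19:40928927-40994535 (minus), Plcg2 chr8:117498291-117635142 (plus), Vav1 chr17:57279100-57328031 (plus) and Ptpn6 chr6:124720707-124738714 (minus). Opposite-strand exons of another gene covered 6.09% of the exon bases of Lyn (Gm26857) and 6.96% of those of Ptpn6 (Gm20531), and none of those of the other 7 members. Since the use of strand in counting is not stated, reads in those stretches cannot be told apart between partners.

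Promoter windows of RefSeq (GRCm38.p6), from 250 bases before to 50 bases after a start site, were matched by symbol for 8 of the 9 members, with 10 windows in all, and none was matched for Lyn. Windows are printed for the member with the largest fold change (Ptprc, first of 2 start sites), for the one with the smallest (Blnk), and for the pair that held GAGGAAGT (Vav1 and Inpp5d), a form of the ETS motif bound by the myeloid factor PU.1. Capitals mark GAGGAAGT and its shorter form AGGAAGT on either strand (ACTTCCT where the match is on the other strand). The shorter form was added after the sequences had been seen, and each GAGGAAGT contains it. The windows lie at chr1:138175256-138175555 (minus), chr19:40994172-40994471 (minus), chr17:57278850-57279149 (plus) and chr1:87620062-87620361 (plus).
Ptprc: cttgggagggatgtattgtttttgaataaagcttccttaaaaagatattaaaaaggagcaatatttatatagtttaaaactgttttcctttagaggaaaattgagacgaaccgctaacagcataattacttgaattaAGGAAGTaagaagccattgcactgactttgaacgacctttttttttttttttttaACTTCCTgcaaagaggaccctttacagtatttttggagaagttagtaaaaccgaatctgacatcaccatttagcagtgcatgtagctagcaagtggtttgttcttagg
Blnk: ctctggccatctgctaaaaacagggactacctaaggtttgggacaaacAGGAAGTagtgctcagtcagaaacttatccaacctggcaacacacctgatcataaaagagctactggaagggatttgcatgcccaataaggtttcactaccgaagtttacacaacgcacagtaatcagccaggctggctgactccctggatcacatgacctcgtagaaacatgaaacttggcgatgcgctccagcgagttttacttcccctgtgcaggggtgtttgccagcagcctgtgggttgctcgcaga
Vav1: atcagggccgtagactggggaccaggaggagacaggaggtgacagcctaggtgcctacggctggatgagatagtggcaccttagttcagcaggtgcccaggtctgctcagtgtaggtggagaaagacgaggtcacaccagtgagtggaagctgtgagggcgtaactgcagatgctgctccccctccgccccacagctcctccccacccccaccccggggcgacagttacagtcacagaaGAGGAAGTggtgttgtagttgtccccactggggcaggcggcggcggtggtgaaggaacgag
Inpp5d: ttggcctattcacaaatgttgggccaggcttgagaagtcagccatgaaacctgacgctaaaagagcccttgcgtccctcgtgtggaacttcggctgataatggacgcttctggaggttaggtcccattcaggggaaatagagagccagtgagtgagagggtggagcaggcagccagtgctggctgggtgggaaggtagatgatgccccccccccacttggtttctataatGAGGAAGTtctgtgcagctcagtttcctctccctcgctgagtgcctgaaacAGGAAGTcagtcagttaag

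GAGGAAGT began at position -11 from the start site in Vav1 and at -20 in Inpp5d, both on the strand of the gene. It was present in 2 of the 10 windows, beside 3.20% of all 32851 promoter windows of the table. The shorter AGGAAGT was present in 6 of the 10 windows, which belong to 5 members (Ptprc, Blnk, Vav1, Inpp5d and Ptpn6), beside 9.35% of all windows. The 2 windows of Ptprc overlap and share 1 of these matches. TTCNNNGAA, the motif of STAT factors, was in 0 of the 10 windows and in 8.30% of all, and TGANTCA, the AP-1 motif, was in 0 of the 10 and in 7.81% of all. These are matches of letters and were not tested. Windows of Syk, Btk and Plcg2 held neither form.

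Library totals ranged from 7559524 to 16877001 counts, and each GFAP-IL6 library was shallower than each WT library. Levels are given as CPM, each library's counts rescaled to sum to 1 M (mega) with TMM scaling, and 3 counts, taken as the floor of detection, corresponded to 0.178 to 0.397 CPM before that scaling. Il6 had 0, 2 and 0 reads over the WT libraries against 12, 10 and 24 over the GFAP-IL6 libraries, so that all GFAP-IL6 and no WT libraries were above the floor, as their genotype labels say. Of 15341 genes that passed the filter on low counts, 407 (2.65%) were higher and 32 (0.209%) were lower in GFAP-IL6 at an edgeR adjusted p under 0.05, and 209 (1.36%) were higher with a log2 fold change over 1 as well.

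All 9 members passed the filter on low counts, with between 6 and 311 counts in a library, and 6 of them (66.7%) were higher in GFAP-IL6. These were Ptprc, Lyn, Plcg2, Vav1, Inpp5d and Ptpn6, and 4 of them (44.4% of the members; Ptprc, Plcg2, Vav1 and Ptpn6) also passed a log2 fold change of 1. None was lower, and the fold changes of Syk, Btk and Blnk did not pass the test. With all libraries thinned to the smallest total, 5 of the 6 higher members were still called, and the adjusted p of Inpp5d was 0.0509. In 7 members each GFAP-IL6 library was above each WT library, which was the case for 13.8% of all genes tested. The median log2 fold change over the 9 members was 0.87, beside -0.00 over all genes tested. In bulk cortex, more cells of a type and more RNA per cell cannot be told apart.

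Ptprc, the receptor-type tyrosine phosphatase CD45 of all nucleated blood-lineage cells, was at 4.35, 3.99 and 4.76 CPM in WT 1, 2 and 3 and at 19.0, 18.3 and 24.9 CPM in GFAP-IL6 1, 2 and 3. The lowest GFAP-IL6 library was thus well above the highest WT library. Its log2 fold change was 2.24 ± 0.16 (SE), a 4.74-fold difference, with an edgeR adjusted p of 5.75e-06. Ptprc ranked 13th by p among the 15341 genes tested and had the largest fold change of the members.

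Among the kinases, Lyn, the Src-family kinase that phosphorylates both ITAMs and ITIMs, was at 7.48, 7.74 and 7.59 CPM in WT 1, 2 and 3 and at 13.7, 12.7 and 15.3 CPM in GFAP-IL6 1, 2 and 3. The WT libraries lay within a narrow range and all GFAP-IL6 libraries were above it, with a log2 fold change of 0.87 ± 0.13 (SE) and an edgeR adjusted p of 0.00236. Syk, the kinase that binds phosphorylated ITAMs, was at 5.13, 6.67 and 6.46 CPM in WT 1, 2 and 3 and at 7.52, 6.59 and 10.5 CPM in GFAP-IL6 1, 2 and 3. GFAP-IL6 3 was the highest and WT 1 the lowest, while GFAP-IL6 2 lay just below WT 2, so that the groups overlapped. The log2 fold change of Syk was 0.42 ± 0.20 (SE), its edgeR adjusted p was 0.246, and its 95% interval ran from -0.00 to 0.84. Btk, the Tec-family kinase that phosphorylates phospholipase C gamma, was at 0.522, 1.97 and 1.50 CPM in WT 1, 2 and 3 and at 2.42, 2.64 and 2.56 CPM in GFAP-IL6 1, 2 and 3. The GFAP-IL6 libraries were close to each other and above the WT range, in which WT 1 was far below the other two. Btk had the fewest reads of the members, with 6, 33 and 24 counts over the WT libraries against 27, 20 and 23 over the GFAP-IL6 libraries. Its log2 fold change of 0.86 ± 0.36 (SE), with a 95% interval from 0.08 to 1.64, had an edgeR adjusted p of 0.207 and did not pass the test. Without WT 1 the log2 fold change of Btk was 0.54, with an adjusted p of 0.239.

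Blnk, the adaptor that links Syk to Btk and phospholipase C gamma, was at 9.31, 10.9 and 9.72 CPM in WT 1, 2 and 3 and at 13.1, 11.3 and 9.03 CPM in GFAP-IL6 1, 2 and 3. The GFAP-IL6 libraries held both the highest and the lowest value of the 6, and the groups overlapped. The log2 fold change of 0.16 ± 0.15 (SE) did not pass the test, with an edgeR adjusted p of 0.574 and a 95% interval from -0.17 to 0.50. The log2 fold changes of the 6 members that passed the test all lie above this interval, as does that of Btk, which did not pass. The 95% intervals of Inpp5d, from 0.37 to 0.97, and of Btk, from 0.08 to 1.64, overlap that of Blnk.

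Plcg2, the phospholipase that produces inositol trisphosphate and diacylglycerol, was at 3.91, 3.93 and 3.82 CPM in WT 1, 2 and 3 and at 11.5, 11.7 and 13.7 CPM in GFAP-IL6 1, 2 and 3. The 3 WT values were nearly equal, and every GFAP-IL6 library was far above them. The log2 fold change was 1.66 ± 0.15 (SE), or 3.16-fold, with an edgeR adjusted p of 5.07e-05, and only Ptprc among the members had a larger one. Vav1, the exchange factor that activates Rac in haematopoietic cells, was at 6.00, 4.11 and 3.89 CPM in WT 1, 2 and 3 and at 11.5, 11.2 and 11.7 CPM in GFAP-IL6 1, 2 and 3. Here WT 1 was above the other WT libraries, yet all GFAP-IL6 libraries were higher and close to each other. The log2 fold change of Vav1 was 1.32 ± 0.18 (SE), with an edgeR adjusted p of 0.000980.

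The inhibitory phosphatases were higher as well. Inpp5d, the lipid phosphatase SHIP1 that removes the PI3K product PIP3, was at 17.7, 17.5 and 18.4 CPM in WT 1, 2 and 3 and at 22.5, 28.7 and 34.7 CPM in GFAP-IL6 1, 2 and 3. The WT libraries were close together, while the GFAP-IL6 libraries were spread from just above them to far above. Its log2 fold change of 0.67 ± 0.14 (SE) had an edgeR adjusted p of 0.0195, and this call was lost without GFAP-IL6 2 (adjusted p of 0.0784) and without GFAP-IL6 3 (adjusted p of 0.134). Ptpn6, the tyrosine phosphatase SHP-1, was at 3.74, 5.72 and 4.95 CPM in WT 1, 2 and 3 and at 9.22, 9.76 and 10.7 CPM in GFAP-IL6 1, 2 and 3. The lowest GFAP-IL6 value exceeded the highest WT value, and the log2 fold change was 1.02 ± 0.18 (SE), with an edgeR adjusted p of 0.00683. Without GFAP-IL6 3 the adjusted p of Ptpn6 was 0.0642.

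**Figure D1:**
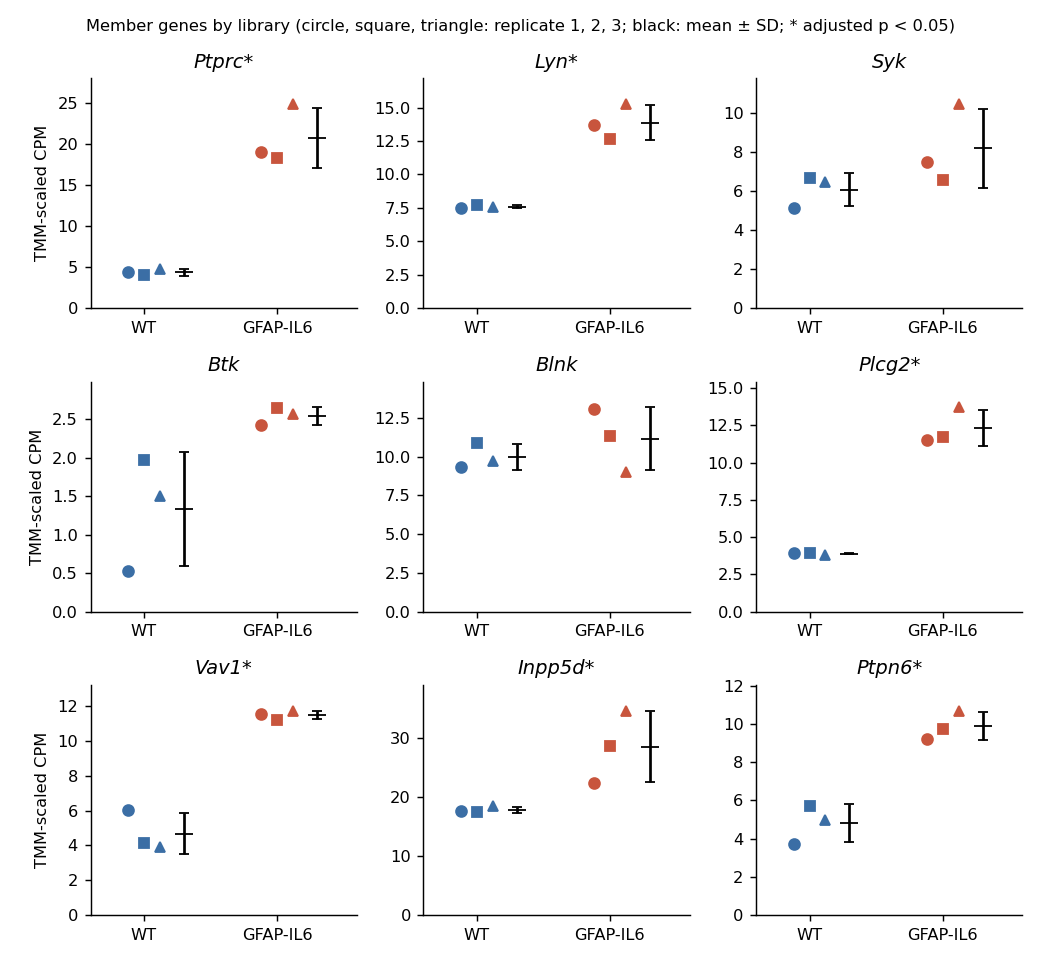
TMM-scaled CPM (y axis, from 0) of each member in the 3 WT (blue) and 3 GFAP-IL6 (red) libraries, with the mean ± SD in black and an asterisk for an edgeR adjusted p under 0.05. The groups are apart in 7 panels and overlap for Syk and Blnk, and the low WT 1 value of Btk is 0.522 CPM.

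The 9 members did not follow 1 order over the libraries. GFAP-IL6 3 held the highest value of its group for 7 members, while the highest was GFAP-IL6 1 for Blnk and GFAP-IL6 2 for Btk. WT 1 was the lowest WT library for 5 members (Lyn, Syk, Btk, Blnk and Ptpn6) and the highest for Vav1. Averaged over the members, the log2 level over the WT mean was 0.99, 0.99 and 1.18 in GFAP-IL6 1, 2 and 3.

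Levels of different genes were compared as TPM, which also divides by gene length. In WT the order was Blnk (13.2 ± 0.712 TPM, SD, n = 3), Inpp5d (9.98 ± 0.464 TPM), Lyn (6.10 ± 0.0736 TPM), Ptpn6 (5.10 ± 0.921 TPM), Vav1 (4.39 ± 1.21 TPM), Syk (2.80 ± 0.317 TPM), Plcg2 (2.52 ± 0.0764 TPM), Ptprc (2.37 ± 0.249 TPM) and Btk (1.36 ± 0.727 TPM). Ranges over the WT libraries overlapped between Ptpn6 and Vav1, between Syk and Plcg2 and between Plcg2 and Ptprc, so that these neighbours did not differ beyond their spread. In GFAP-IL6 the order was Inpp5d (16.8 ± 3.46 TPM, SD, n = 3), Blnk (15.5 ± 2.94 TPM), Ptprc (11.8 ± 2.02 TPM), Lyn (11.7 ± 1.12 TPM), Vav1 (11.3 ± 0.308 TPM), Ptpn6 (11.1 ± 0.775 TPM), Plcg2 (8.38 ± 0.783 TPM), Syk (3.97 ± 0.975 TPM) and Btk (2.75 ± 0.0955 TPM). The ranges of each neighbouring pair from Inpp5d down to Ptpn6 overlapped, and Plcg2, Syk and Btk were each apart from their neighbours. Ptprc was thus the 8th of 9 in WT TPM and the 3rd of 9 in GFAP-IL6 TPM, at a level that overlapped those of Lyn and Blnk.

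**Figure D2:**
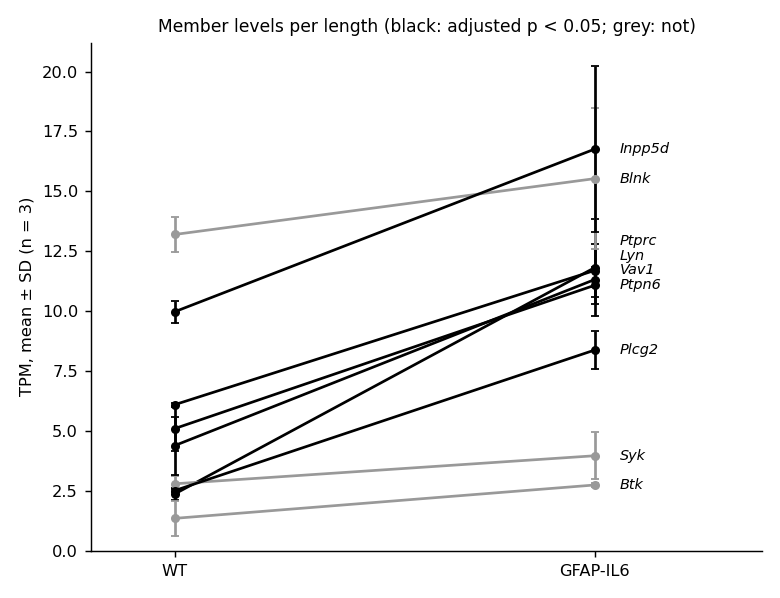
TPM (y axis, from 0) of each member in WT and GFAP-IL6, as mean ± SD over 3 libraries, joined by a line that is black where the edgeR adjusted p was under 0.05 and grey where it was not. Ptprc rises from 2.37 to 11.8 TPM, and the lines of Blnk, Syk and Btk are the flattest.

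Ratios between members within a library do not depend on library scaling, and 6 pairs were compared, chosen after the values had been seen. The ratio of Ptprc to Blnk was higher in all GFAP-IL6 libraries than in all WT libraries, by 2.09 on the log2 scale, with p = 0.1 by an exact two-sided permutation test, the smallest value possible with 3 mice a group, and an adjusted p of 0.240 over the 6 pairs. Between the effectors, the log2 ratio of Plcg2 to Vav1 was higher in every GFAP-IL6 library by a very small margin (-0.023 in WT 3 against 0 in GFAP-IL6 1). The group means differed by 0.33 (exact permutation p of 0.1, adjusted p of 0.240), and this difference was 0.14 without WT 1. The ratio of Ptpn6 to Inpp5d differed by 0.40 on the log2 scale and overlapped between groups (exact permutation p of 0.2). Among the kinases, the log2 ratios of Lyn to Syk, Lyn to Btk and Btk to Syk differed by 0.45, -0.27 and 0.72, and each overlapped between groups (exact permutation p of 0.2, 0.9 and 0.2). Without WT 1 the differences of Ptpn6 to Inpp5d, Lyn to Btk and Btk to Syk were 0.24, 0.29 and 0.27.

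Most members have relatives that other cell types of the cortex express. Of 19 such paralogs, 14 passed the filter on low counts, 0 were lower in GFAP-IL6, and their median log2 fold change was 0.10. Lcp2 (SLP-76), the adaptor related to Blnk, was higher. It was at 2.54 ± 0.355 CPM in WT (SD, n = 3) against 7.23 ± 0.681 CPM in GFAP-IL6 (SD, n = 3), with a log2 fold change of 1.49 ± 0.20 (SE) and an edgeR adjusted p of 0.000800.

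Among the Src-family relatives of Lyn, log2 fold changes were -0.12 (Fyn), 0.07 (Src), -0.14 (Yes1) and 0.66 (Lck), and these did not pass the test. Zap70, the relative of Syk that is best known from T cells, was at 0.09 on the same scale, and the relatives of Btk were at 0.11 (Tec) and -0.12 (Bmx). Plcg1, the widely expressed relative of Plcg2, was at 0.20, with an edgeR adjusted p of 0.206. Vav2 was at 0.38 and Vav3 at 0.05, Inppl1, the relative of Inpp5d, at 0.23, and Ptpn11 (SHP-2), the relative of Ptpn6, at -0.02. The signs of Zap70, Src, Tec, Vav3 and Ptpn11, whose fold changes were near 0, turned in some alternative settings. Paralogs that were not tested had few reads. Fgr, a Src-family kinase of myeloid cells, was at 0, 3 and 0 counts over the WT libraries against 12, 2 and 11 over the GFAP-IL6 libraries, and Blk, Txk and Clnk were at 9 counts or fewer in every library.

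**Figure D3:**
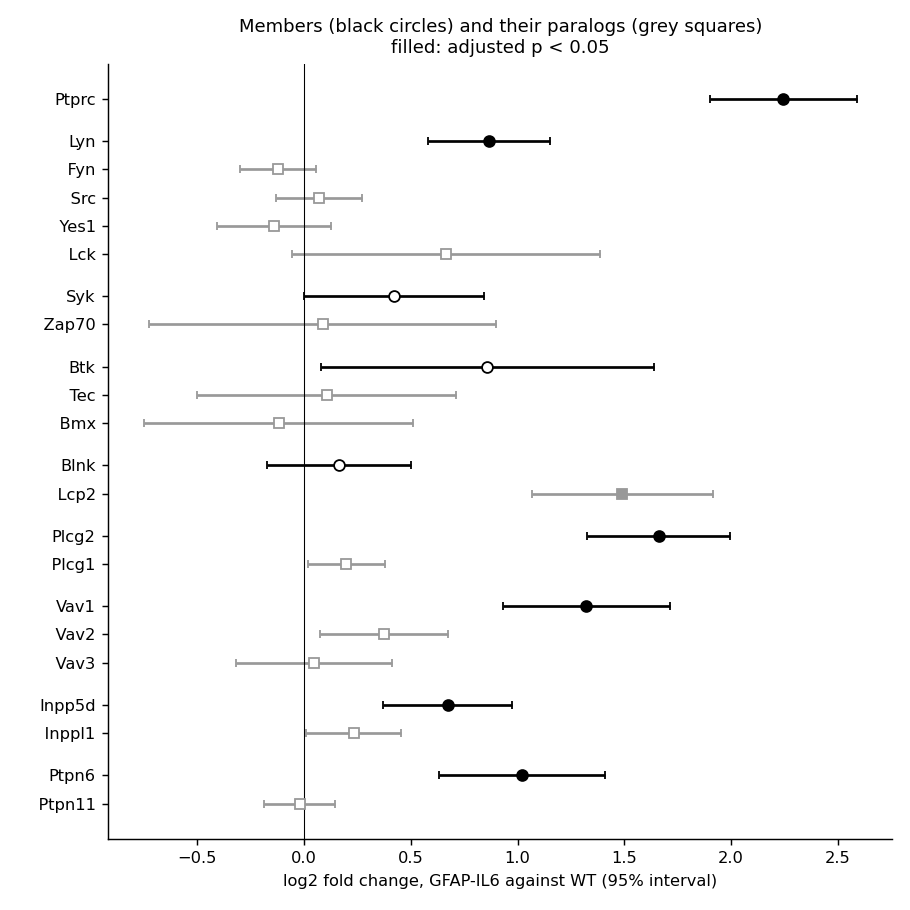
Log2 fold change of GFAP-IL6 against WT (x axis) with its 95% interval for the members (black circles) and their paralogs (grey squares, listed under their member), filled where the edgeR adjusted p was under 0.05. Lcp2 at 1.49 is the filled square, and the other squares shown are open.

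The ratio of a member to the sum of its paralogs was computed within each library for the 8 members with listed paralogs. It was higher in all GFAP-IL6 than in all WT libraries for 5 of them. A share over all genes was not computed for this ratio. The log2 ratio differed by 0.87 for Lyn, 1.06 for Btk, 1.46 for Plcg2, 1.04 for Vav1 and 1.08 for Ptpn6, all with p = 0.1 by the exact permutation test and an adjusted p of 0.133. Without WT 1, where Btk had 6 counts, the difference of Btk was 0.52. For Blnk, set against Lcp2 and Clnk, the difference had the opposite sign. Its log2 ratio went from 1.75 ± 0.22 (SD, n = 3) in WT to 0.57 ± 0.16 (SD, n = 3) in GFAP-IL6, a difference of -1.18 with no overlap between groups (exact permutation p of 0.1). The log2 ratios of Syk to Zap70 and of Inpp5d to Inppl1 differed by 0.29 and 0.42 and overlapped between groups, with exact permutation p of 0.8 and 0.2.

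Receptors that feed into these members were higher in part. Over all genes tested, 2.65% were higher at an edgeR adjusted p under 0.05, and the median log2 fold change was -0.00. Of 12 listed activating receptors and their adaptors, 8 were tested, 6 were higher, and the median log2 fold change was 1.24. Fcgr4, an activating receptor for IgG, was at 0, 2 and 2 counts over the WT libraries against 51, 40 and 51 over the GFAP-IL6 libraries, and its level in GFAP-IL6 was at least 24.7-fold higher than a floor of 3 counts per WT library. The IgG receptors Fcgr1 and Fcgr3 and their shared ITAM adaptor Fcer1g had log2 fold changes of 1.76 ± 0.18 (SE), 1.38 ± 0.14 (SE) and 1.36 ± 0.16 (SE), with edgeR adjusted p of 0.000144, 1.00e-04 and 0.000286. The lectins Siglech and Clec5a, which signal through the ITAM adaptor Tyrobp, were at 0.40 and 0.24 and did not pass the test. Tyrobp itself and the receptor Trem2 were higher, at 0.79 and 1.13, with edgeR adjusted p of 0.00813 and 0.000289 (both chosen for naming after their values were seen). Of 11 inhibitory receptors, 10 were tested, 5 were higher, and the median was 0.70. Fcgr2b, the inhibitory IgG receptor, was at 2.98 ± 0.411 CPM in WT (SD, n = 3) against 29.9 ± 6.81 CPM in GFAP-IL6 (SD, n = 3), with an edgeR adjusted p of 1.86e-06. Cd22, a sialic acid receptor, was at 0, 1 and 4 counts over the WT libraries against 14, 18 and 19 over the GFAP-IL6 libraries, and Pirb was at 4, 8 and 0 counts over the WT libraries against 29, 16 and 26 over the GFAP-IL6 libraries. Lair1, a collagen receptor, had a log2 fold change of 0.80 ± 0.13 (SE). The most abundant inhibitory receptors that did not pass the test were Sirpa, the receptor for CD47, at 469 ± 19.9 CPM in WT (SD, n = 3) against 490 ± 6.58 CPM in GFAP-IL6 (SD, n = 3), and Cd72, at 44.6 ± 2.03 CPM in WT (SD, n = 3) against 48.0 ± 3.45 CPM in GFAP-IL6 (SD, n = 3).

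Of 12 downstream adaptors, 11 were tested, 5 were higher, and the median was 0.81. The share that was higher over all genes tested was 2.65%. Fyb, an adaptor of integrin activation, was at 3.27 ± 0.634 CPM in WT (SD, n = 3) against 12.8 ± 1.58 CPM in GFAP-IL6 (SD, n = 3), with a log2 fold change of 1.96 ± 0.18 (SE) and an edgeR adjusted p of 4.82e-05. Pik3ap1 (BCAP), which brings PI3K to receptors, and the inhibitory adaptor Dok3 had log2 fold changes of 1.77 ± 0.28 (SE) and 1.11 ± 0.18 (SE). Grb2 and Cbl, used by many receptors in most cells, were at -0.08 and 0.52 and did not pass the test. Of 13 downstream effectors, 13 were tested, 5 were higher, and the median was 0.74. Those with the smallest adjusted p were Nckap1l, a subunit of the actin-regulating WAVE complex of blood cells (0.93 ± 0.10 (SE)), the PI3K subunit Pik3cd (0.74 ± 0.09 (SE)), Dock2, an exchange factor for Rac (1.12 ± 0.15 (SE)), and Rac2 itself (1.40 ± 0.25 (SE)), all log2 fold changes. Without GFAP-IL6 3, 3 effectors were called, and Rac2 was not among the genes that passed. Coro1a, an actin-binding protein, and the kinase Prkcd were at 0.09 and 0.64 and did not pass the test with edgeR, while Prkcd passed it with DESeq2.

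**Figure D4:**
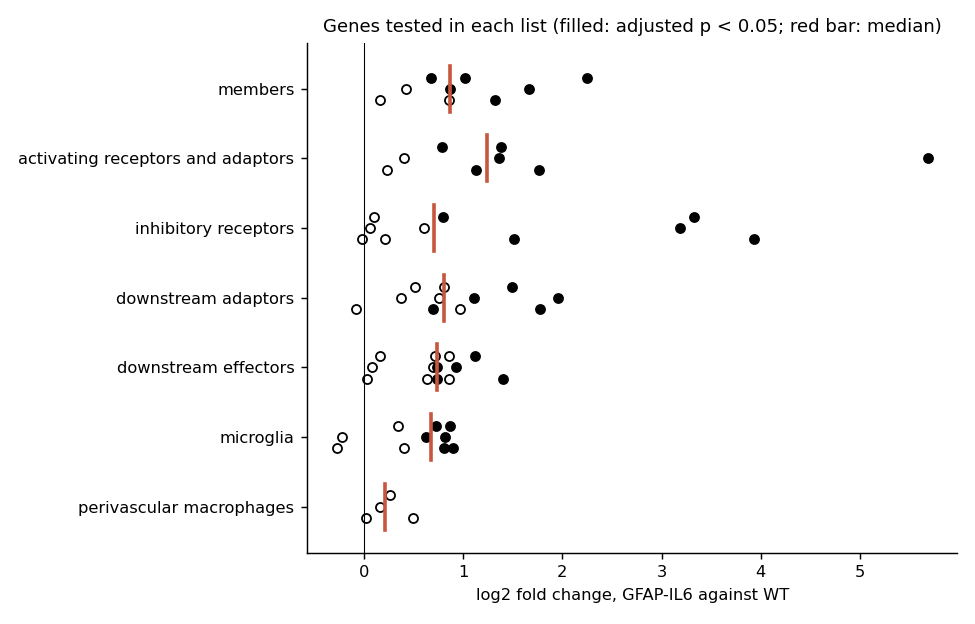
Log2 fold change of GFAP-IL6 against WT (x axis) for each gene tested among the members and in 6 of the lists (points, filled where the edgeR adjusted p was under 0.05), with the median of the list as a red bar. The medians drawn run from 0.22 for the perivascular macrophage markers to 1.24 for the activating receptors, and Fcgr4 lies farthest right at 5.68.

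Markers of microglia moved with the members. For the counts that follow, the share that was higher over all genes tested was 2.65%. Of 10 microglia markers, 10 were tested and 6 were higher, their median log2 fold change was 0.68, and their summed level was 398 to 499 CPM in WT and 669 to 770 CPM in GFAP-IL6. Csf1r, the growth factor receptor of microglia, was at 0.87 on the log2 scale, while P2ry12 and Gpr34 were at -0.27 and -0.22 and did not pass the test (these 3 were chosen for naming after their values were seen). Of 4 endothelial markers, 4 were tested and 2 were higher, with a median log2 fold change of 0.65. Their summed level was 88.5 to 102 CPM in WT and 150 to 176 CPM in GFAP-IL6. An unadjusted edgeR p under 0.05 was found for 4 of these 4, for 8 of the 10 microglia markers and for 3139 of the 15341 genes tested. Perivascular macrophage markers (4 tested of 5, 0 higher, unadjusted p under 0.05 for 0 of them) had a summed level of 7.27 to 12.8 CPM in WT and 9.04 to 14.7 CPM in GFAP-IL6. The part of these cell types in the fold changes of the members was not tested.

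Other blood cells that use the same pathway had few reads of their defining markers. For B cells, Cd79a, Ms4a1 and Pax5 were at 3 counts or fewer in every library, and only Ighm of the 6 markers was tested, at 34.0 ± 3.37 CPM in WT (SD, n = 3) against 37.9 ± 3.34 CPM in GFAP-IL6 (SD, n = 3). For T and NK cells, Cd3d and Prf1 were at 0 in all libraries, Cd3e and Cd3g were at 3 counts or fewer, and 0 of the 3 tested of 11 markers were called (0 also at an unadjusted p under 0.05). Within the floor of 3 counts, Cd3e was at 0, 0 and 0 over the WT libraries against 3, 1 and 2 over the GFAP-IL6 libraries. Cd8a was at 1, 0 and 1 against 2, 1 and 3. Cd4, which was tested, had a log2 fold change of -0.51. The 7 neutrophil markers did not exceed 4 counts in any library. Of the 4 monocyte markers, Ly6c2, Plac8 and Chil3 were at 3 counts or fewer, and Ccr2 was at 2, 11 and 8 counts over the WT libraries against 14, 5 and 13 over the GFAP-IL6 libraries. In CPM, Ccr2 was at 0.174, 0.655 and 0.502 in WT 1, 2 and 3 and at 1.25, 0.659 and 1.45 in GFAP-IL6 1, 2 and 3, so that the groups did not overlap, by a small margin. The summed monocyte markers, 0.261 to 0.655 CPM in WT and 0.923 to 1.78 CPM in GFAP-IL6, did not overlap either. This sum was mostly Ccr2 in each library, so it adds little beyond Ccr2. The part of monocytes in the fold changes of the members was not tested. The summed neutrophil, T and NK cell and B cell markers overlapped between groups. For neurons (6 markers), astrocytes (5) and oligodendrocytes (4), all were tested and 0 were called at an edgeR adjusted p under 0.05, with 2, 2 and 0 at an unadjusted p under 0.05. The 2 of astrocytes, Aqp4 and Aldh1l1, had log2 fold changes of 0.42 and -0.21. Gfap, an astrocyte gene outside this list, was higher, with a log2 fold change of 2.84 ± 0.20 (SE) and an edgeR adjusted p of 5.49e-06.

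Set against the summed microglia markers of the same library, the members differed from each other. The log2 ratio was higher in all GFAP-IL6 than in all WT libraries for 5 of 9 members: Ptprc, Plcg2, Vav1, Ptpn6 and Lyn. How many of all genes tested would do so was not computed. The difference was 1.02 for Plcg2, 0.69 for Vav1, 0.42 for Ptpn6 and 0.23 for Lyn. For Ptprc, where it was largest, the log2 ratio went from -6.70 ± 0.24 (SD, n = 3) in WT to -5.10 ± 0.13 (SD, n = 3) in GFAP-IL6. Blnk was lower against the markers in all GFAP-IL6 libraries, from -5.51 ± 0.09 (SD, n = 3) in WT to -6.00 ± 0.37 (SD, n = 3) in GFAP-IL6, a difference of -0.49. For each of these 6 differences the exact permutation test gave p = 0.1, its smallest value, and an adjusted p of 0.150 over the 9 members, so that none could pass a threshold of 0.05 in this design. For Inpp5d, Syk and Btk the log2 ratio differed by 0.02, -0.23 and 0.50 and overlapped between groups, with exact permutation p of 0.900, 0.300 and 0.400. Without WT 1 the difference of Btk was 0.02, and without GFAP-IL6 3 that of Blnk was -0.28. The markers themselves changed unequally, so these ratios depend on which of them weigh most in the sum.

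**Figure D5:**
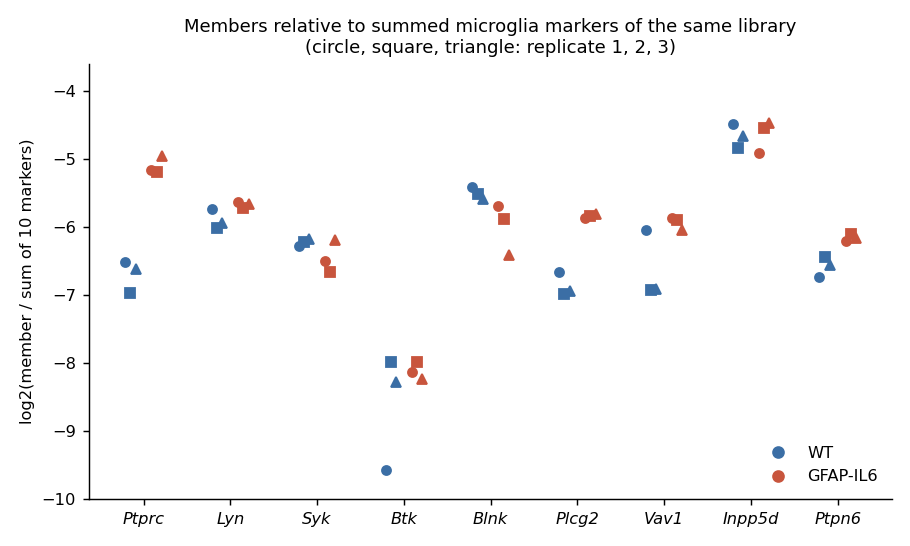
Log2 ratio of each member to the sum of 10 microglia markers (y axis) in the 3 WT (blue) and 3 GFAP-IL6 (red) libraries, with circle, square and triangle for replicates 1, 2 and 3. Ptprc shows the widest gap between group means, and Blnk is the member whose red points all lie below its blue points.

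The genes whose profile over the 6 libraries was most like the mean profile of the members were Tgfbr2, Slco2b1, Cpt1b, Laptm5 and Nckap1l. Likeness was the root mean square distance on the log2 scale after subtracting the WT mean, and it is a description of these libraries. It was taken over 15015 tested genes other than the members, with a mean above 1 CPM and reads in all 6 libraries. The distances were 0.0875, 0.0880, 0.0891, 0.0958 and 0.101. Cpt1b had 13 to 27 counts in a library and did not pass the test, with an edgeR adjusted p of 0.0623. Tgfbr2, a receptor for TGF-beta, was at 18.0 ± 0.613 CPM in WT (SD, n = 3) against 39.1 ± 1.80 CPM in GFAP-IL6 (SD, n = 3). Laptm5, a lysosomal membrane protein of blood cells, was at 28.0 ± 2.18 CPM in WT (SD, n = 3) against 63.1 ± 4.45 CPM in GFAP-IL6 (SD, n = 3).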

How the data were processed

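TruSeq mRNA libraries of frontal cortex from 3 WT and 3 GFAP-IL6 mice were analysed as whole-number read counts per gene, deposited by the authors as 1 table with a length for each gene. STAR alignment to mm10 and assignment of unique reads to GENCODE genes by featureCounts are given in the study's methods. The submitters' processing notes name STAR 2.4, featureCounts and Subread. They also name the human build hg19, but the identifiers are those of mouse genes. Use of strand is not given in the sources used here. Positions were taken from GENCODE M21 (GRCm38), which matched 32593 of the 33000 identifiers, and promoters from RefSeq (GRCm38.p6).

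Counts were tested with edgeR 4.0.16 in R 4.3.3 (quasi-likelihood F-test, TMM, filterByExpr, group as the only term, Benjamini-Hochberg adjustment over 15341 genes), which was tested on simulated data first. A gene was called at an adjusted p under 0.05, and SE and 95% intervals were derived from the F statistic. DESeq2 1.42.0 (the tool of the study), limma-voom 3.58.1, other scalings, no filter, thinning, a replicate block and leaving out each library were alternatives. Single ratios were compared by exact two-sided permutation tests. TPM used the deposited lengths. Replicates are separate mice. No pair of libraries agreed within sampling noise (chi-square per degree of freedom from 2.23 to 20.1). Total counts ranged from 7559524 to 16877001, and the floor of 3 counts covers counting error only.

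The members and all gene lists were chosen with earlier results of these data known. Named were the members, their paralogs, and from each pathway list up to 4 called genes with the smallest adjusted p and the 2 most abundant others, plus the 5 genes most like the members. Tyrobp, Trem2 and Gfap were named in addition. 3’Pool-seq libraries were not analysed here, and some genes that these rules name, with the list of Src-family kinases and regulators, are not reported here.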

Additional observations from a re-analysis of the deposited data

How the results depend on the processing

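The 9 members were refitted under 14 alternatives each, and 122 of these 126 fits kept both the direction and the side of the threshold, with 0 reversals. Of the other 4, all still positive, Inpp5d had an adjusted p of 0.0509 with all libraries thinned to the smallest total, and it lost its call without GFAP-IL6 2 and without GFAP-IL6 3, as did Ptpn6 without GFAP-IL6 3. Between 4 and 6 members were called in every setting. Over all genes, 439 genes with an adjusted p under 0.05 became 1154 with no filter on low counts and 187 to 1061 when each library was left out in turn, and the 211 genes past both thresholds became 48 with the fold change prior of DESeq2 and 129 to 239 with a library left out. Without a filter 69.4% of calls were higher, and with DESeq2 79.6%, beside 92.7% in the edgeR fit, whereas other scalings gave 91.9% and 93.2%. With the replicate block the share was 80.0%, and with a library left out it ran from 65.2% (without WT 1, 692 higher and 369 lower) to 99.5% (without GFAP-IL6 3, 186 higher and 1 lower). The median over the members was 0.61 with that prior and 0.86 to 1.16 with a library left out, the highest without WT 2. The prior also brought the log2 fold changes of Plcg2, Vav1 and Ptpn6 to 1.07, 0.82 and 0.63.

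With the replicate number as a block (replicate block), 799 genes had an adjusted p under 0.05 and the same 6 members were called. Same-numbered libraries deviated together with correlations of 0.0996, 0.0147 and 0.0211, and 4 of 6 libraries correlated best with their own number. Whether the numbers stand for a pairing or a batch is not given by the labels and was not tested.

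Paralogs with fold changes near 0 changed sign in 10 of 195 fits, none of them called. Zap70 was at -0.12 after thinning, and with a library left out the log2 fold changes were -0.18 to 0.35 for Zap70, -0.0033 to 0.16 for Src, -0.039 to 0.34 for Tec, -0.046 to 0.13 for Vav3 and -0.052 to 0.013 for Ptpn11. The differences in log2 ratio with a library left out were -0.23 to 0.72 for Syk to its paralog, -0.066 to 0.16 for Inpp5d to the microglia markers and -0.64 to 0.29 for Lyn to Btk, each passing 0, and 168 of all 173 recomputed ratio differences kept their sign. Of 321 fits of named pathway genes, 12 gained a call (Siglech, Cbl and Prkcd) and 1 lost it (Rac2 without GFAP-IL6 3, adjusted p of 0.0750). Downstream effectors called numbered 9 without a filter, 8 with the block and 3 without GFAP-IL6 3, beside 5. Causes were not tested. The lowest count of a member in a library was 6, for Btk in WT 1.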
